A study of Mus musculus with 7 samples.

Results

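Genes of limb-girdle muscular dystrophy and plasma membrane repair were followed in cultured mouse muscle stem cells (MuSCs): *Capn3*, *Dysf*, *Ano5*, *Trim32*, *Myof*, *Anxa1*, *Anxa2*, *Anxa5* and *Anxa6*. They were chosen by symbol, and all 9 were found among the 56748 genes of the deposited count tables. MuSCs are the resident stem cells of skeletal muscle. The cells came from hind limb muscle of adult mice, were sorted with magnetic beads as CD31-, CD45-, Sca1- and Integrin α7+, and were kept in myoblast growth medium. There were 3 WT libraries and 4 libraries from mice homozygous for *Jag2sm*, a naturally occurring missense allele of the NOTCH ligand gene *Jag2*, which the study obtained as STOCK Jag2sm/J mice. The labels write this genotype as Jag2-/-, whereas the study describes a missense variant and not a deletion. No other allele and no agent was given for either group, the age was given only as adult, and the strain of the WT mice was not named beside these libraries. RNA was read as long cDNA molecules on an Oxford Nanopore instrument. Nothing states whether replicates came from separate animals, so p-values measure the spread between these libraries.

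The sarcolemma of a muscle fiber tears during use and is resealed by a calcium-triggered machinery. Dysferlin (*Dysf*) brings vesicles to the wound, and annexins bind calcium and acidic phospholipids to form a scaffold and cap over it. Loss of dysferlin, of anoctamin 5 (*Ano5*, a membrane protein of the scramblase and chloride channel family), of calpain 3 (*Capn3*, a muscle protease) or of TRIM32 (an E3 ubiquitin ligase) causes recessive limb-girdle dystrophy in humans, and variants of *JAG2* itself are a cause of the same group of diseases.

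*Dysf* and *Ano5* fell in *Jag2sm* MuSCs, while the 6 other genes with enough reads had higher mean levels without passing the test. Reads assigned to genes numbered 187834, 1657016 and 1159203 in WT replicates 1 to 3 and 671660, 1421058, 1937581 and 1223863 in *Jag2sm* replicates 1 to 4. Levels below are in CPM, the reads of a gene per 1000000 reads of TMM-normalised library size, not divided by transcript length. Fold changes are log2 values of *Jag2sm* over WT with their standard error (SE) from edgeR's quasi-likelihood test, and calls were made at 0.05 after Benjamini-Hochberg adjustment over all 9489 genes tested. Of those, 594 were called, or 6.26%, with 135 higher (1.42%) and 459 lower (4.84%). This total was 251 without *Jag2sm* replicate 2, 343 without WT replicate 2 and 341 without WT replicate 3, with 30, 33 and 20 of these calls higher, and without *Jag2sm* replicate 3 it was 616 with 220 higher. Of the 9 genes, 8 passed the filter on low counts, and 2 of these 8 were called, both lower. The median log2 fold change of the 8 was 0.48, over 6 values above 0 and 2 below, beside 0.049 over all genes tested. All 6 values above 0 were smaller without WT replicate 1.

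4 libraries stood apart before any comparison. WT replicate 1 was the shallowest, with 45.1% of its aligned reads outside any gene against 20.8% to 25.7% in the other libraries, and 3 counts in it equal 17.3 CPM. In *Jag2sm* replicates 1, 2 and 4, 50.8%, 46.7% and 46.0% of all reads were not aligned, against 2.44% to 3.24% in the WT libraries and 3.07% in *Jag2sm* replicate 3. The labels number batches 1 to 4 with the same numbers as the replicates, and batch 4 holds a *Jag2sm* library only. *Jag2* itself counted 80.7, 114 and 116 CPM in WT replicates 1 to 3 and 42.4, 78.8, 71.9 and 77.4 CPM in *Jag2sm* replicates 1 to 4. Its libraries did not overlap between genotypes, but its log2 fold change of −0.64 (SE 0.243) did not pass the test (edgeR adjusted p = 0.166), except with libraries thinned to the smallest (−1.18, adjusted p = 0.0414), and a count of reads over the gene does not check a missense allele.

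Upstream sequences are shown for the 2 genes that fell and for 2 genes whose *Jag2sm* libraries all lay above WT. Each is the 250 bases before the first annotated base of the gene in GENCODE M39, taken from GRCm39 and written 5′ to 3′ on the strand of the gene. Capitals mark CANNTG, the E-box core that MYOD and myogenin can bind. The windows are chr6:83985095-83985344 for *Dysf*, chr7:51160345-51160594 for *Ano5*, chr4:65522951-65523200 for *Trim32* and chr9:69360292-69360541 for *Anxa2*, all on the plus strand.
Dysf: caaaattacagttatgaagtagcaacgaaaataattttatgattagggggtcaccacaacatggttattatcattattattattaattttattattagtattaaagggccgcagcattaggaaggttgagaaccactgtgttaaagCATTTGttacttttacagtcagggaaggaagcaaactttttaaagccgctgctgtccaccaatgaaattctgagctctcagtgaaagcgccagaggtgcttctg
Ano5: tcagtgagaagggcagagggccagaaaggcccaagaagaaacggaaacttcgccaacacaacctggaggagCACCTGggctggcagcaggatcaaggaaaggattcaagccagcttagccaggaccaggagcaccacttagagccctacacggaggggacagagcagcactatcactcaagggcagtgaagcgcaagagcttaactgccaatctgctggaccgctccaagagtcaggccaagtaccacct
Trim32: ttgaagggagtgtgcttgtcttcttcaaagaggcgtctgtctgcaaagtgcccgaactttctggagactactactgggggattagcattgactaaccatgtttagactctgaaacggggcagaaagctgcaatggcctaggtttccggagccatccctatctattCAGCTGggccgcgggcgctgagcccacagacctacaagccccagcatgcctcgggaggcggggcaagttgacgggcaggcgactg
Anxa2: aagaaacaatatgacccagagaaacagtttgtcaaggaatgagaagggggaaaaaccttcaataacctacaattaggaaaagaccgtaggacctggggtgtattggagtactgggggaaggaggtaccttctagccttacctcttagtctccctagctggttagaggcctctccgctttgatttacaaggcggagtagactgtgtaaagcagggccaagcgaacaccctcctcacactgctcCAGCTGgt
The letters CANNTG occurred in 6 of the 9 windows, once in each, and in 66.5% of the 21757 windows of protein-coding genes. CAGCTG was found upstream of *Capn3*, *Trim32* and *Anxa2*, against 12.0% of all windows, and CACCTG or its reverse complement CAGGTG upstream of *Ano5*, against 17.7%. The core in the *Dysf* window, CATTTG, starts 104 bases before the gene, and the *Ano5* core, CACCTG, starts 179 bases before it. The MEF2 element was found 2 times upstream of *Dysf* and 1 time upstream of *Capn3*, and 3.09% of all windows held at least 1. The letters TATAAA, searched on both strands, were in none of the 9 windows. CANNTG and the MEF2 element read alike on both strands, and all other E-box letters searched are forms of CANNTG. Annotated genes on the opposite strand share exon sequence with *Dysf* and *Ano5*, and overlap of the windows themselves was not examined. A match of letters is a description of the window and no evidence of binding.

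*Dysf* lies at chr6:83985345-84188042 on the plus strand of GRCm39. It counted 46.1, 30.4 and 38.9 CPM in WT replicates 1 to 3 and 12.7, 8.98, 8.87 and 10.6 CPM in *Jag2sm* replicates 1 to 4. Every *Jag2sm* library lay well below every WT library. The part of unaligned reads, which were few in *Jag2sm* replicate 3 only among the mutant libraries, was not tested. WT libraries averaged 38.5 ± 7.88 CPM (SD, n = 3) from 96 reads, and *Jag2sm* libraries 10.3 ± 1.80 CPM (SD, n = 4) from 53. Its log2 fold change was −1.85 (SE 0.278, edgeR adjusted p = 0.00539). Within batches 1, 2 and 3 the log2 difference was −1.73, −1.59 and −1.94, and without WT replicate 1 the log2 fold change was −1.79. An exact two-sided permutation test of its log2 CPM gave p = 0.0286, the smallest value that the 35 splits of 7 libraries allow. In bulk RNA of this kind, fewer cells of a type and less RNA per cell cannot be told apart.

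*Ano5*, at chr7:51160595-51249083 on the plus strand, had the largest fold change of the 8 genes tested. Its level was 236, 129 and 101 CPM in WT replicates 1 to 3 and 28.3, 12.4, 19.7 and 32.6 CPM in *Jag2sm* replicates 1 to 4. The genotypes did not overlap, and WT replicate 1 was the highest library by a wide margin. The means were 155 ± 71.3 CPM (SD, n = 3) and 23.3 ± 8.99 CPM (SD, n = 4), from 347 and 118 reads. The log2 fold change was −2.67 (SE 0.361, edgeR adjusted p = 0.00355) with all libraries and −2.36 without WT replicate 1. All 3 batches with both genotypes showed the fall, with log2 differences of −2.99, −3.20 and −2.27, and the exact two-sided permutation p was 0.0286. An annotated gene on the opposite strand shares exon sequence with *Ano5*, as do Gm15475 and Gm33024 with *Dysf*. The strand setting of the counting was not given in the sources used here, so reads of these pairs cannot be told apart. The same holds for *Anxa2* (Gm16144), *Anxa5* (1810062G17Rik) and *Anxa6* (Gm74393). *Mir7009* overlaps *Anxa5* on the same strand.

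*Capn3* was too sparse to test. Its reads numbered 0, 1 and 5 in WT replicates 1 to 3 and 1, 1, 0 and 1 in *Jag2sm* replicates 1 to 4. Most of its WT reads were therefore in a single library, and the genotypes overlapped. Pooled over libraries, 6 WT reads against 3 *Jag2sm* reads gave a log2 ratio of −1.96 at equal depth, with an exact 95% binomial interval of −4.59 to 0.26 that covers counting error only. Without WT replicate 3 the log2 ratio was −0.068. Its exons at chr2:120294048-120338450 overlap those of *Zfp106* on the opposite strand, a gene at 1568, 664 and 661 CPM in WT replicates 1 to 3 and 173, 254, 251 and 303 CPM in *Jag2sm* replicates 1 to 4, and those of Gm52968 on the same strand. A difference in *Capn3* was not detectable at this depth.

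**Figure D1:**
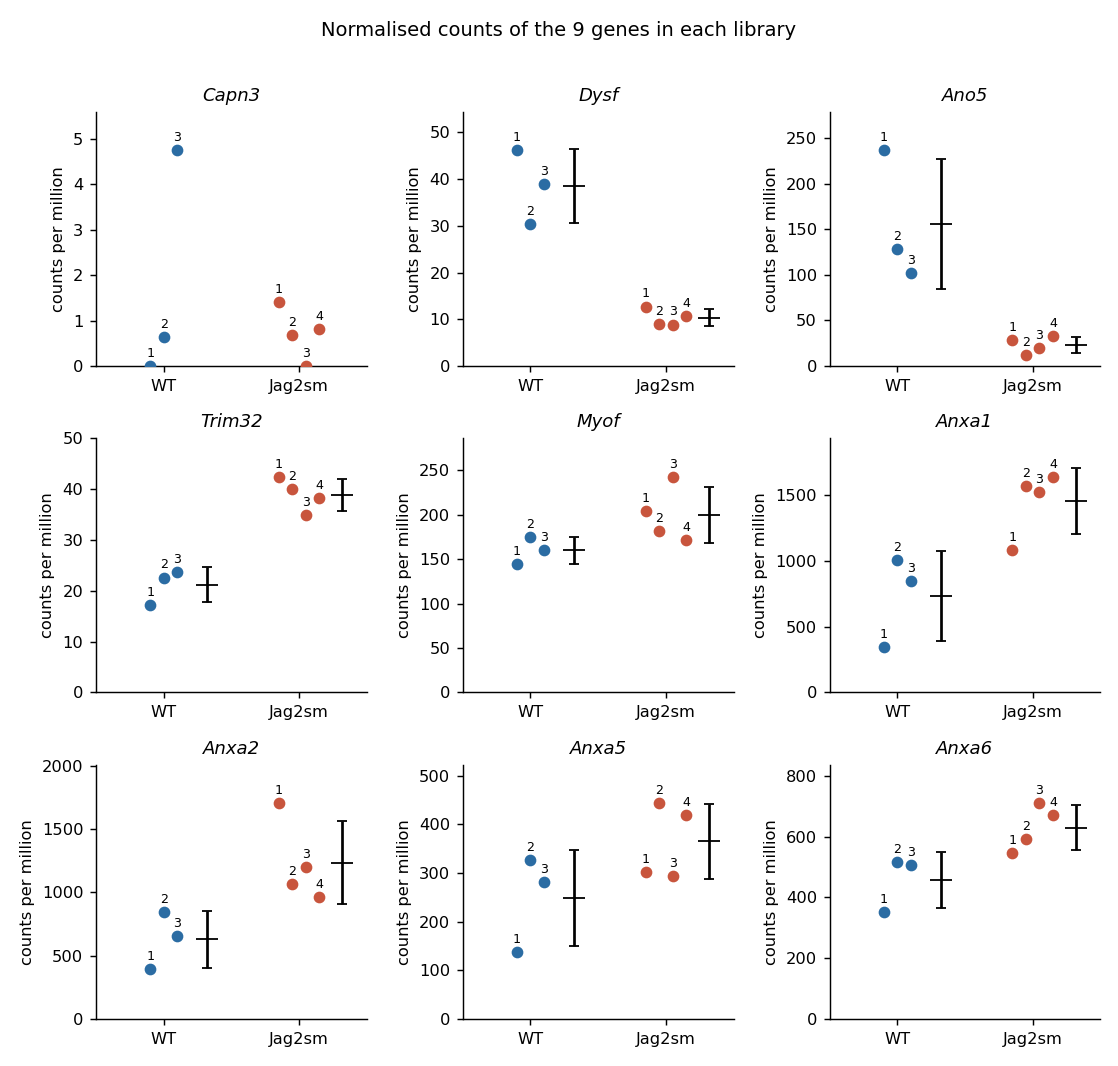
Level of each of the 9 genes in CPM (linear axes from 0) in the 3 WT libraries (blue) and 4 Jag2sm libraries (red), numbered by replicate, with the mean and SD as bars beside the points except for Capn3, which was not tested. Dysf and Ano5 are lower in all 4 Jag2sm libraries, and Trim32, Anxa1, Anxa2 and Anxa6 are higher in all 4.

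*Trim32*, which encodes a ligase that tags muscle proteins such as desmin and actin for turnover, ran the other way. At chr4:65523201-65537781, it counted 17.3, 22.6 and 23.7 CPM in WT replicates 1 to 3 and 42.4, 40.1, 34.98 and 38.3 CPM in *Jag2sm* replicates 1 to 4. All *Jag2sm* libraries lay above all WT libraries, although the lowest WT value rested on 3 reads. The log2 fold change of 0.79 (SE 0.234) missed the threshold (edgeR adjusted p = 0.0757). The exact two-sided permutation p was 0.0286, the smallest possible value, which *Anxa1*, *Anxa2* and *Anxa6* also had. The batches gave log2 differences of 1.22, 0.78 and 0.53. Scaling by library size alone put the gene past the threshold, at 0.95 with an edgeR adjusted p of 0.0384.

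The 4 annexins of the set had higher means in *Jag2sm*, and none was called by edgeR (2 had an unadjusted p under 0.05, as did 19.7% of all genes tested) or limma-voom, whereas DESeq2 called 1. *Anxa1*, at chr19:20350792-20368374, counted 346, 1005 and 850 CPM in WT replicates 1 to 3 and 1085, 1567, 1528 and 1639 CPM in *Jag2sm* replicates 1 to 4. WT replicate 1 was far below the other WT libraries, and *Jag2sm* replicate 1 was only a little above the highest WT library. It had a log2 fold change of 0.97 (SE 0.354, edgeR adjusted p = 0.149) and of 0.64 without WT replicate 1.

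*Anxa2*, at chr9:69360542-69399077, encodes the annexin that pairs with S100A10 on membranes. Its level was 392, 843 and 653 CPM in WT replicates 1 to 3 and 1701, 1065, 1197 and 964 CPM in *Jag2sm* replicates 1 to 4. The genotypes did not overlap, but the highest WT and the lowest *Jag2sm* library were close, and *Jag2sm* replicate 1 was well above the other mutant libraries. The log2 fold change was 0.95 (SE 0.320, edgeR adjusted p = 0.115), and DESeq2, which called 6.35% of the genes it tested, gave 0.98 with an adjusted p of 0.0322. Without WT replicate 1 the edgeR value was 0.71, and the batches gave 2.11, 0.337 and 0.872.

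*Anxa5*, at chr3:36503072-36530126, is the annexin used as a probe for exposed phosphatidylserine. It counted 138, 326 and 281 CPM in WT replicates 1 to 3 and 303, 443, 295 and 419 CPM in *Jag2sm* replicates 1 to 4. The genotypes overlapped, and the log2 fold change of 0.51 (SE 0.298, edgeR adjusted p = 0.380) was within the spread of the libraries, with an exact two-sided permutation p of 0.171. Without WT replicate 1 the log2 fold change was 0.25.

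*Anxa6*, at chr11:54869654-54924305, is the largest annexin and forms part of the repair cap in muscle. Its level was 352, 517 and 506 CPM in WT replicates 1 to 3 and 547, 592, 710 and 670 CPM in *Jag2sm* replicates 1 to 4. The *Jag2sm* libraries all lay above the WT libraries by a small step, with a log2 fold change of 0.45 (SE 0.234, edgeR adjusted p = 0.326), and of 0.29 without WT replicate 1.

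*Myof*, at chr19:37887484-38032048, encodes myoferlin, a ferlin of myoblast fusion related to dysferlin. It counted 144, 175 and 160 CPM in WT replicates 1 to 3 and 204, 182, 242 and 172 CPM in *Jag2sm* replicates 1 to 4. The lowest *Jag2sm* library fell inside the WT range. Its fitted log2 fold change was 0.31 (SE 0.208, edgeR adjusted p = 0.458), and the exact two-sided permutation p was 0.114.

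Counting libraries in place of fitted values, 6 of the 8 genes tested had genotypes that did not overlap, 4 higher and 2 lower in *Jag2sm*. Over all genes tested this held for 22.5%, with 10.3% higher and 12.2% lower. WT replicate 1 was the lowest WT library for all 4 annexins, whose annotated transcripts run from 1447 to 2785 nt. In that library, genes with transcripts under 1500 nt, the class of *Anxa2*, had a median log2 deviation from the mean of the 7 libraries of −0.566. Genes of 1500 to 3000 nt, the class of the other annexins of the set, had one of −0.155, and genes of 6000 nt and longer one of 0.158. The long transcripts of *Dysf*, with 7081 nt, and *Ano5*, with 8411 nt, are in the longest class. So are those of *Myof*, with 7156 nt, and *Trim32*, with 6501 nt. Among the WT libraries, replicate 1 was the highest for *Dysf* and *Ano5* but the lowest for *Myof* and *Trim32*. With this length trend removed and WT replicate 1 left out together, a setting chosen after seeing the data, the log2 fold changes were −1.79 for *Dysf*, −2.34 for *Ano5*, 0.73 for *Trim32*, 0.62 for *Anxa1*, 0.68 for *Anxa2*, 0.23 for *Anxa5*, 0.27 for *Anxa6* and 0.25 for *Myof*.

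**Figure D2:**
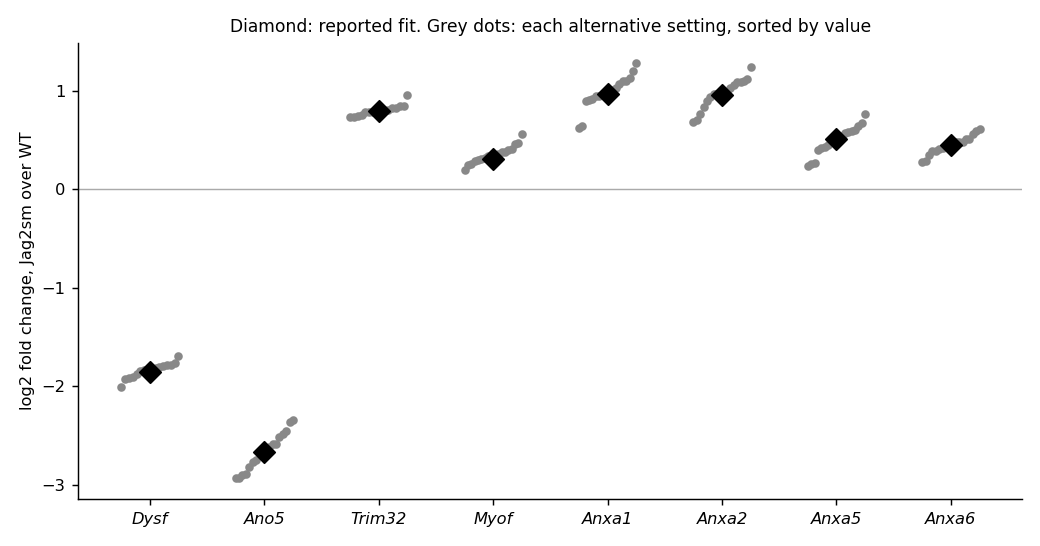
Log2 fold change of Jag2sm over WT for the 8 genes tested: black diamonds give the reported edgeR fit and grey dots each alternative setting that tested the gene, sorted by value. Dysf ranges from −2.01 to −1.69 and Ano5 from −2.93 to −2.34, and none of the 8 genes changes sign.

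Ratios of 2 genes within a library need no scaling between libraries. The ratio of *Dysf* reads to *Myof* reads was 0.320, 0.173 and 0.243 in WT replicates 1 to 3 and 0.0625, 0.0494, 0.0366 and 0.0616 in *Jag2sm* replicates 1 to 4. The balance of the 2 ferlins was thus lower in each mutant library than in any WT library, with mean log2 ratios of −2.04 in WT and −4.23 in *Jag2sm*. For *Ano5* against *Ano6*, the widely expressed scramblase of the family, the ratio of reads was 13.7, 15.3 and 6.29 in WT replicates 1 to 3 and 3.33, 0.75, 1.25 and 1.67 in *Jag2sm* replicates 1 to 4. The same separation held here, although WT replicate 1 had only 3 *Ano6* reads. A130051J06Rik, Gm49172 and Gm62511 overlap *Ano6* on the opposite strand, so its reads are uncertain as those of *Ano5* are. The *Anxa2* to *Anxa6* ratio ran from 1.11 to 1.63 in WT and from 1.44 to 3.11 in *Jag2sm* and overlapped, as did *Capn3* to *Capn2*.

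**Figure D3:**
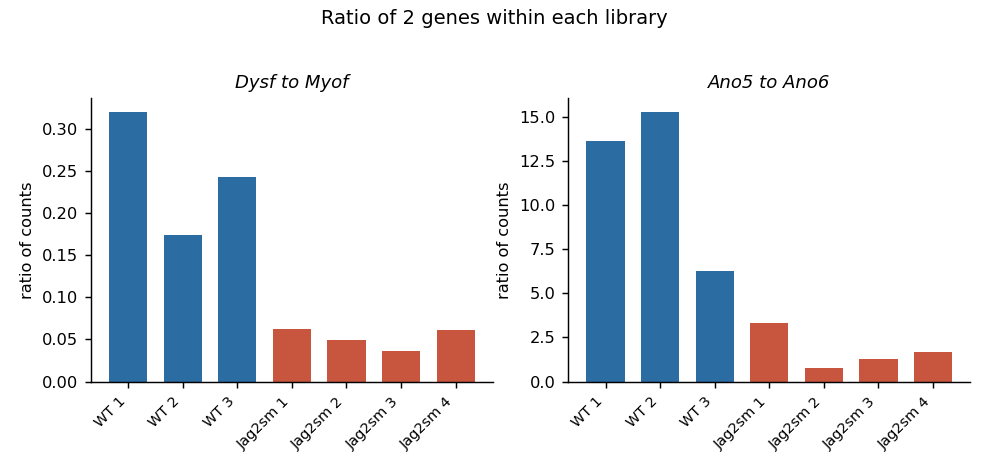
Ratio of read counts of Dysf to Myof and of Ano5 to Ano6 within each of the 3 WT (blue) and 4 Jag2sm (red) libraries, with bars from 0. Every Jag2sm bar is shorter than every WT bar in both panels.

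Among 8 other annexins, 4 were tested, and 1 of them was called, lower in *Jag2sm*, beside 4.84% of all genes tested. The median log2 fold change of the 4 was −0.33, and 0.074 without WT replicate 1. The gene called was *Anxa11*, an annexin linked to RNA granule transport, with a WT mean of 94.0 ± 19.6 CPM (SD, n = 3), a *Jag2sm* mean of 32.2 ± 15.9 CPM (SD, n = 4) and a log2 fold change of −1.50 (SE 0.338, edgeR adjusted p = 0.0267). Its call was lost when WT replicate 1, 2 or 3 or *Jag2sm* replicate 1 or 2 was left out, with adjusted p from 0.0526 to 0.0909. *Anxa11os*, Gm62337 and *Plac9* share exon sequence with it on the opposite strand. *Anxa3* had a log2 fold change of −0.47, *Anxa7* of −0.20 and *Anxa4* of 0.13, none of them called. Without WT replicate 1 *Anxa3* had −0.049, *Anxa7* 0.20 and *Anxa4* 0.35.

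The list of S100 partners and *Ahnak* held 5 genes, of which none was called by edgeR (1 had an unadjusted p under 0.05, beside 19.7% of all genes tested), DESeq2 or limma-voom, and their median log2 fold change was 0.58. *S100a6*, *S100a11* and *S100a10*, small partners of the annexins, had values of 0.58, 0.36 and 0.58, and *Ahnak*, a giant scaffold protein that joins the *Anxa2* complex, had −0.10. Without WT replicate 1 the S100 values were 0.12, −0.013 and 0.27 and the median of the list 0.247, and *Ahnak* had 0.25. *S100a4*, named after its value was seen, counted 23.1, 16.8 and 17.1 CPM in WT replicates 1 to 3 and 55.1, 23.5, 77.4 and 31.0 CPM in *Jag2sm* replicates 1 to 4. Its genotypes did not overlap, and its log2 fold change was 1.40 (edgeR adjusted p = 0.0971), 1.46 without WT replicate 1 and 1.42 with no filter on low counts (edgeR adjusted p = 0.00115). Of 13 other ferlins and anoctamins, 4 were tested and none was called by edgeR (2 at an unadjusted p under 0.05, beside 19.7% of all genes tested) or limma-voom, with a median of 0.95. DESeq2 fitted 12 of them, called 1 and gave a median of −0.084. *Ano1*, a calcium-activated chloride channel, had a WT mean of 14.2 ± 15.3 CPM (SD, n = 3) and a *Jag2sm* mean of 71.3 ± 39.3 CPM (SD, n = 4) (log2 fold change 1.85, edgeR adjusted p = 0.0853), *Ano6* had 0.31 and *Ano10* 0.26. *Ano1* was the gene DESeq2 called (2.08, adjusted p = 0.0226), and edgeR called it with no filter on low counts (adjusted p = 5.37e-07). *Ano3*, named here after its value was seen, had 1.60 with an edgeR adjusted p of 0.0569, 0.0395 with library size alone and 0.0378 with no filter. The other ferlin genes had too few reads to be tested, with 6 WT and 18 *Jag2sm* reads for *Fer1l6* and fewer for *Otof*, *Fer1l4* and *Fer1l5*.

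Of 9 genes of the calpain system besides *Capn3*, 8 were tested and none was called by edgeR (1 at an unadjusted p under 0.05, beside 19.7% of all genes tested), with a median log2 fold change of 0.26, while DESeq2 and limma-voom each called 1. Without *Jag2sm* replicate 1, 9 were tested and the median of the list was 0.054. *Capn2*, a ubiquitous calpain, had 0.52, its small subunit *Capns1* 0.18 and its inhibitor calpastatin, *Cast*, 0.34. *Capn1*, named after its value was seen, had a WT mean of 38.5 ± 2.11 CPM (SD, n = 3) and a *Jag2sm* mean of 14.1 ± 10.7 CPM (SD, n = 4) (log2 fold change −1.58, edgeR adjusted p = 0.0655). It was the gene limma-voom called (−1.87, adjusted p = 0.0156), and edgeR called it without *Jag2sm* replicate 1 (−2.09, adjusted p = 0.0120), with the replicate block and the length trend removed (adjusted p = 0.0457) and with no filter (adjusted p = 0.000341). DESeq2 called *Capn6* (−3.05, adjusted p = 0.00889), which had 35 WT and 13 *Jag2sm* reads, did not pass edgeR's filter on low counts and was called by edgeR without that filter (adjusted p = 0.000358).

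Among 21 partners in membrane repair, 20 were tested and 4 were called by edgeR, all lower, beside 4.84% of all genes tested, with a median of −0.23. These 4 were *Trim72*, which encodes MG53, a muscle protein that nucleates repair vesicles, *Cav3* and *Cavin4*, which build muscle caveolae, and *Bin1*, which shapes T-tubules. *Cav3* counted 559, 291 and 377 CPM in WT replicates 1 to 3 and 49.5, 37.3, 15.8 and 65.2 CPM in *Jag2sm* replicates 1 to 4. No mutant library came near the WT range, and the log2 fold change was −3.29 (SE 0.417, edgeR adjusted p = 0.00285). The log2 fold change was −2.87 for *Cavin4* (edgeR adjusted p = 0.00955) and −1.63 for *Bin1* (edgeR adjusted p = 0.00774). *Trim72* was at −3.30 (edgeR adjusted p = 0.0192), but its call was lost without *Jag2sm* replicate 1 (adjusted p = 0.0501) or replicate 2 (adjusted p = 0.0524). The most abundant partners that edgeR did not call, *Cavin1*, *Ehd4* and *Pdcd6ip*, had values of 0.27, −0.83 and −0.22, and *Cavin1* had 0.0050 without WT replicate 1. DESeq2 called 5 genes of the list, among them *Ehd4* (−0.77, adjusted p = 0.0324). *Ehd2*, a membrane-shaping protein of caveolae, was named after its value was seen. It counted 17.3, 45.2 and 43.6 CPM in WT replicates 1 to 3 and 66.5, 89.8, 56.2 and 86.4 CPM in *Jag2sm* replicates 1 to 4, with no overlap. Its log2 fold change of 0.89 did not pass the test (edgeR adjusted p = 0.0919), and edgeR called it higher with library size alone (1.05, adjusted p = 0.0474) and with no filter on low counts (0.91, adjusted p = 0.0373).

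Of 32 other limb-girdle dystrophy genes, 24 were tested and 7 were called, all lower, beside 4.84% of all genes tested. The median log2 fold change of the 24 was −0.53, with 20 values below 0 and 4 above. The genes called were the sarcomere and Z-disc genes *Tcap* (−3.98), *Ttn* (−3.39) and *Myot* (−5.28), the intermediate filament gene *Des* (−1.63), the caveolin gene *Cav3*, and *Dag1* (−1.80) and *Sgcb* (−1.12) of the dystrophin-associated complex (edgeR adjusted p between 0.00285 and 0.0244). Without *Jag2sm* replicate 2 this count was 4, since *Des*, *Dag1* and *Sgcb* no longer passed. With batch number as a block, *Des* (edgeR adjusted p = 0.0596) and *Sgcb* (edgeR adjusted p = 0.0675) were not called. *Des* was also lost without *Jag2sm* replicate 1 (edgeR adjusted p = 0.0601). *Lmna*, *Plec* and *Hnrnpdl*, the most abundant genes of the list that were not called, had log2 fold changes of 0.24, −0.22 and −0.01, and of 0.13, 0.32 and −0.18 without WT replicate 1. *Cav3* stands in both lists and is counted in each.

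**Figure D4:**
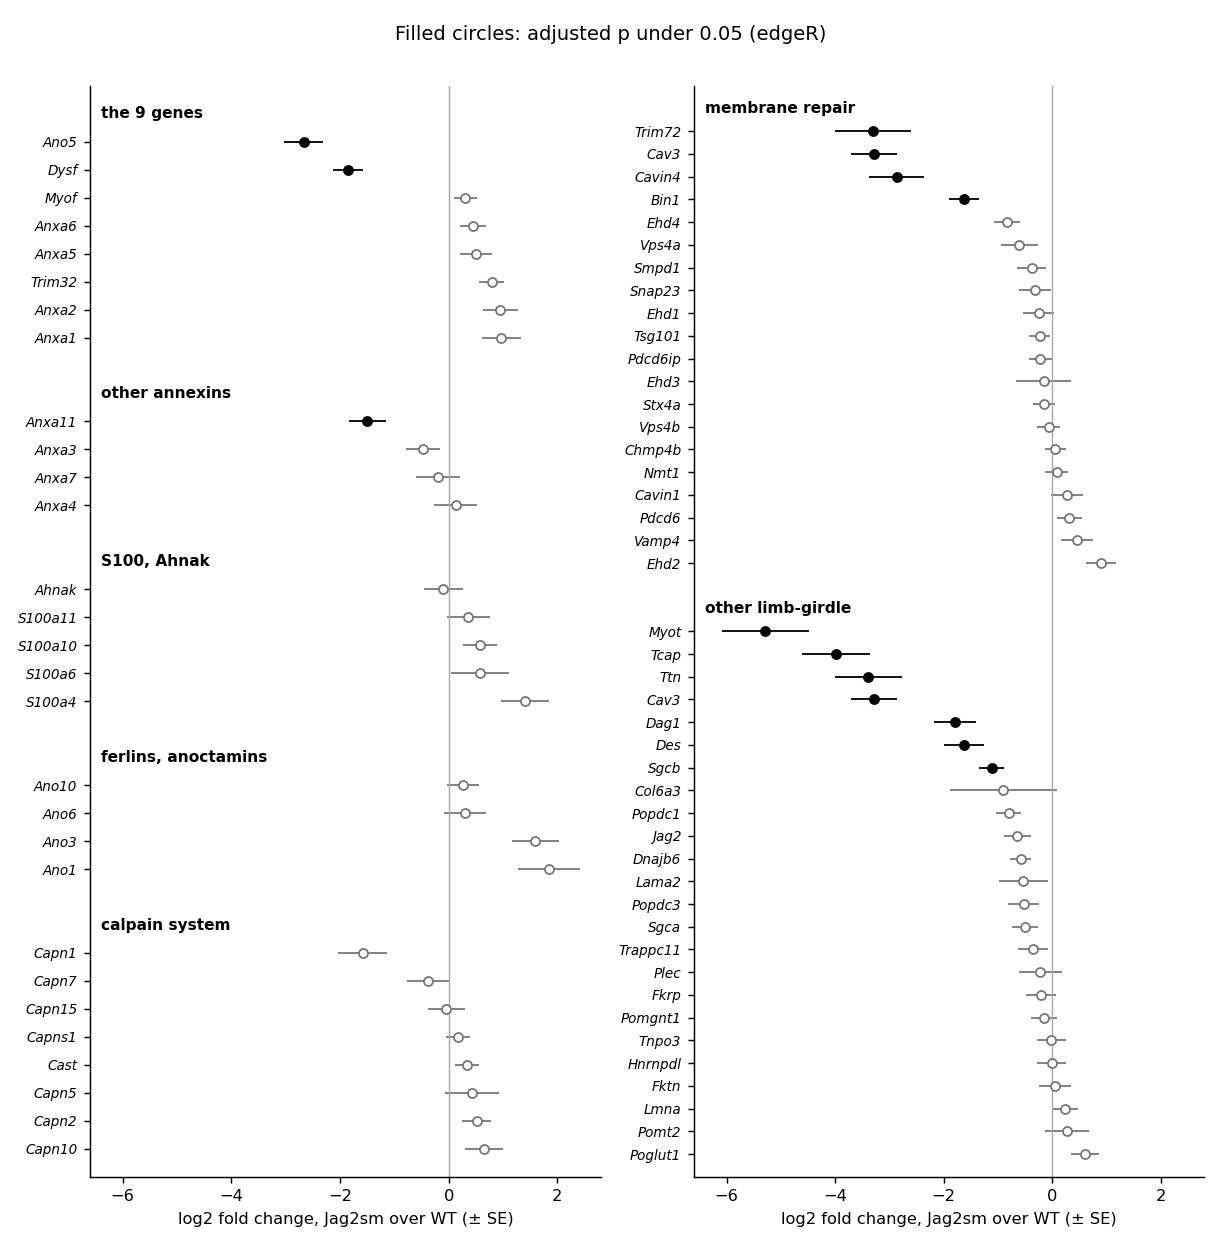
Log2 fold change of Jag2sm over WT with its SE for each tested gene of the set and of 6 related lists, with filled circles at an edgeR adjusted p under 0.05. All filled circles lie left of 0, from Myot at −5.28 to Sgcb at −1.12, and Cav3 is drawn in 2 lists.

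Markers of differentiated muscle moved along with these genes. Of 14 such markers, 13 were tested, and 12 were called by edgeR and 13 by limma-voom, all lower in *Jag2sm*, beside 4.84% of all genes tested by edgeR. The 12 were *Myog*, *Mymk*, *Mymx*, *Myh3*, *Myh8*, *Acta1*, *Actn2*, *Tnnt3*, *Tnnc1*, *Myl1*, *Myl4* and *Mylpf*, genes of muscle transcription, fusion and contraction. Their log2 fold changes ran from −3.88 for *Myh8* to −2.26 for *Mymx*, and *Tnnt1* had −2.28 (edgeR adjusted p = 0.0606). The list's median log2 fold change was −3.21, with 11 called without WT replicate 1 or *Jag2sm* replicate 1, 10 without WT replicate 2 or 3 and 8 without *Jag2sm* replicate 2. *Myog* lost its call in each of these 5 omissions (edgeR adjusted p from 0.0572 to 0.107), *Mymx* without WT replicate 2 or 3 or *Jag2sm* replicate 2 (0.0807 to 0.158) and with the replicate block (0.0675), and *Acta1* (0.0565) and *Myl4* (0.0514) without *Jag2sm* replicate 2. Genes on the opposite strand share exon sequence with *Acta1*, *Myh8*, *Myl4*, *Mylpf*, *Myog*, *Tnnt1* and *Tnnt3*. This holds above also for *Ano1*, *Ano3*, *Capn1*, *Ehd4*, *Bin1*, *Trim72*, *Des*, *Tcap* and *Ttn*. It holds too for *Anxa4*, *Capn2*, *Capns1*, *Cast*, *Cavin1*, *Plec*, *Hnrnpdl*, *Fer1l5* and *Fer1l6* and, below, for *Itga7* and *Vcam1*. All these values are uncertain in the same way. On the same strand, Gm42674 overlaps *S100a4*, Gm55194 overlaps *Capn6*, Gm42603 overlaps *Anxa3*, *Parp10* overlaps *Plec* and *Mir6941* overlaps *Jag2*. The summed level of the list was 47580, 31220 and 35360 CPM in WT replicates 1 to 3 and 6284, 3738, 1147 and 7514 CPM in *Jag2sm* replicates 1 to 4, and *Acta1*, the skeletal actin gene, was the most abundant. The sums did not overlap between genotypes, and WT replicate 1 was the highest library for the sum, *Dysf* and *Ano5* alike. Within *Jag2sm*, replicate 3 had the lowest marker sum and the lowest *Dysf* level, but *Ano5* was lowest in replicate 2. Of 10 markers of muscle stem cells and myoblasts, 9 were tested and none was called by edgeR (2 at an unadjusted p under 0.05, beside 19.7% of all genes tested), DESeq2 or limma-voom, and their sum was 1504, 1825 and 1679 CPM in WT replicates 1 to 3 and 1435, 1659, 1762 and 1767 CPM in *Jag2sm* replicates 1 to 4, led by *Myod1*. Its members differed in sign. *Pax7* was higher in every *Jag2sm* library than in any WT library (log2 fold change 0.80, edgeR adjusted p = 0.174) and *Vcam1* had 1.03 (edgeR adjusted p = 0.212, called with no filter at 0.00829), while *Cdh15* had −0.61, *Itga7* −0.63 and *Myod1* −0.19. The part of the differentiated markers in the results for *Dysf* and *Ano5* was not tested.

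**Figure D5:**
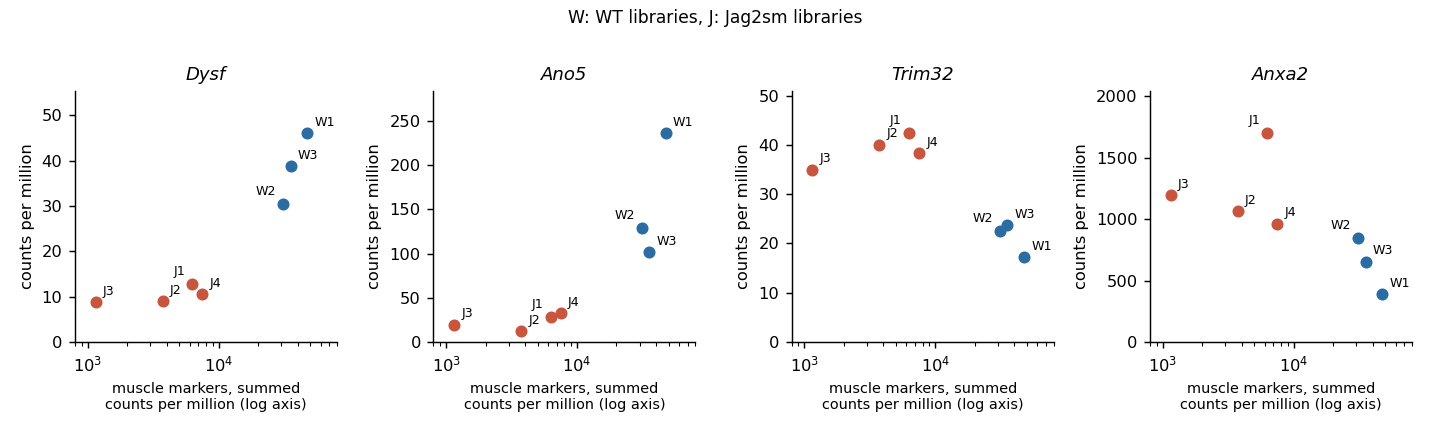
Level of Dysf, Ano5, Trim32 and Anxa2 in CPM (linear axis from 0) against the summed CPM of 14 differentiated muscle markers (log axis) in the 3 WT (W, blue) and 4 Jag2sm (J, red) libraries. The marker sum is 31220 CPM or more in all WT libraries and 7514 CPM or less in all Jag2sm libraries, so the points form 1 cluster per genotype.

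Endothelial, fibro-adipogenic and immune markers, of cells that the sort should have removed, had few reads. The 6 endothelial markers summed to 2.45 to 14.1 CPM per library, the 6 fibro-adipogenic markers to 4.08 to 28.8 CPM and the 6 immune markers to 0 to 4.08 CPM, and no gene of these lists had enough reads to be tested. *Kdr*, *Lum*, *Ptprc*, *Adgre1*, *Cd3e* and *Tyrobp* had no read in any library. The most abundant genes of these 3 lists were *Tek*, *Col15a1* and *Cd68*. *Ly6a*, of the fibro-adipogenic list, had 6 reads in WT and 43 in *Jag2sm*, and its genotypes overlapped. *Pecam1* had 2 WT and 16 *Jag2sm* reads and *Pdgfra* 1 and 7, and both lay higher in every *Jag2sm* library than in any WT library. No gene of these 3 lists was lower without overlap. These values rest on few reads, and 3 reads in WT replicate 1 equal 17.3 CPM. *Mkx*, a tenocyte marker, had 0 WT and 8 *Jag2sm* reads, also without overlap. Other genes overlap exons of *Ly6a*, *Pdgfra* and *Mkx*. Of the 4 tenocyte markers only *Scx* was tested, and it was lower in *Jag2sm* (117 ± 2.55 CPM in WT, SD, n = 3, and 47.0 ± 19.2 CPM in *Jag2sm*, SD, n = 4, edgeR adjusted p = 0.0223), a call that was lost without WT replicate 2 or 3 or *Jag2sm* replicate 1 or 2. The 6 mural and glial markers summed to 11.5 to 45.9 CPM in WT and to 60.6 to 690 CPM in *Jag2sm*, where the highest value was *Rgs5* in replicate 1. *Rgs5* counted 11.5, 12.9 and 14.2 CPM in WT replicates 1 to 3 and 645, 29.7, 40.4 and 25.3 CPM in *Jag2sm* replicates 1 to 4. It was not called with all libraries (log2 fold change 3.73, edgeR adjusted p = 0.135), but edgeR called it higher without *Jag2sm* replicate 1 (1.27, adjusted p = 0.0491) and with no filter (3.71, adjusted p = 6.71e-23). *Jag2sm* replicate 1 also held the highest *Anxa2* level, and the part of those cells in it was not tested.

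By Pearson's r of log2 CPM over the 7 libraries, the genes most like *Dysf* were *Katnbl1* (r = 0.996), *Tead4* (0.992) and *Usp5* (0.989), and those most like *Ano5* were *Pdha1* (0.994), *Mir133a-2* (0.993) and *Sema3b* (0.992). *Dysf* and *Ano5* correlated with each other at r = 0.964. For *Trim32* they were *Lhfpl2*, *Camk2n1* and *Pgf* (r from 0.988 to 0.993), and for *Myof* *Abcf1*, *Cr1l* and *Ttll7* (0.973 to 0.991). *Sdc2*, *Retsat* and *Aldh9a1* were most like *Anxa1* (0.990 to 0.997), and *Ctxn1*, Gm56517 and *Dock9* most like *Anxa2* (0.992 to 0.996). *Col3a1*, *Noa1* and Gm13680 came nearest to *Anxa5* (0.987 to 0.989), and *Ebna1bp2*, *Kif22* and *Fcf1* to *Anxa6* (0.987 to 0.998). These are the highest of 9489 values each over 7 points that share genotype and depth, and are given as a description only.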

How the data were processed

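3 RNA samples from WT and 4 from Jag2sm homozygous MuSCs were sequenced as nanopore cDNA with ligated barcodes. Per the study's methods and the submitters' processing notes, the authors base called the reads, aligned them to GRCm39 with minimap2 2.17 and deposited whole-number counts per gene from HTSeq, 1 file per library. The HTSeq strand setting and the annotation version were not given in the sources used here. A deposited DESeq2 result table (mean normalised count, log2 fold change with its error and statistic, p-value and adjusted p-value; R 4.3.0) holds the authors' own comparison and was not used.

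Of 56748 gene identifiers, 56017 matched GENCODE M39 without version, which gave symbols, positions and the length of the canonical transcript. The 5 HTSeq summary lines were kept out of library sizes. Counts were fitted with edgeR 4.0.16 (quasi-likelihood, TMM, filterByExpr with a minimum count of 10, Benjamini-Hochberg adjustment) in R 4.3.3, with no covariate, and SE is the log2 fold change over the square root of F. Alternatives used DESeq2 1.42.0 and limma 3.58.1, other scalings and filters, removal of the length trend, thinning, a replicate block and omission of each library. Log2 CPM used a prior count of 2. Fits were also run on simulated data, and no outcome of those runs is reported here. The labels give each replicate number also as a batch number, and so pair the libraries, but same-numbered libraries hardly deviated together (correlations 0.0740, 0.0144 and 0.0539). Genes named were all 9 members, each called gene of the lists, up to 3 abundant genes of each list that were not called, and the 3 genes most correlated with each member. Other genes (among them *Ahnak*, *S100a4*, *Ehd2*, *Rgs5*, *Ano3*, *Capn1*, *Capn6*, the sparse ferlins and some cell type markers) were named after their values were seen. Members and lists were chosen with earlier results of these data known. A gene of these lists is not reported here. Intervals cover counting error only, and reads carry no molecular identifiers.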

Additional observations from a re-analysis of the deposited data

Results flagged for a closer look

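In 5 of 98 groups of 4 Jag2sm libraries tested, 1 library lay far from the other 3 by Dixon's criterion, which chance alone meets in about 1 of 20 groups. These were *Ano10* in Jag2sm replicate 2 (20.0 CPM, low), *Plec* in replicate 1 (298 CPM, low), *Popdc1* in replicate 3 (45.3 CPM, low), *Sdc4* in replicate 3 (446 CPM, high) and *Rgs5* in replicate 1 (645 CPM, high). None of the 9 genes was among them.

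Reads outside the gene counts differed between libraries. In Jag2sm replicates 1, 2 and 4, 50.8%, 46.7% and 46.0% of all reads were not aligned, above the 2.44% to 3.24% of the WT libraries, and their part in the results was not tested. In Jag2sm replicate 3, at 3.07%, *Dysf* (8.87 CPM) and *Ano5* (19.7 CPM) lay below all WT libraries, like the other Jag2sm libraries.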

How the results depend on the processing

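*Dysf* and *Ano5* stayed lower and called in every setting that tested them, 16 for *Dysf* and 18 for *Ano5*. The count of the 9 genes called was 1 with at least 10 counts in every library and 1 after thinning to the smallest library, because *Dysf* had too few reads to be tested there. *Trim32* passed with library size alone (log2 fold change 0.95) and *Anxa2* with DESeq2 (0.98), each in no other setting run, and the cause was not tested. In all, 594 genes were called, against 1248 without a low-count filter, 274 with at least 10 counts in every library, 256 after thinning and 251 to 616 when 1 library was left out. With the replicate block, which follows the batch numbers, 565 genes were called (630 with the length trend also removed). The block changed the call of none of the 8 genes tested, and of the related genes it ended those of *Des* and *Sgcb* and, among the muscle markers, of *Mymx* (edgeR adjusted p = 0.0675), while *Tnnt1* (edgeR adjusted p = 0.0108) passed with it. Library size alone gave 61.4% of calls lower in place of 77.3%, and no filter 62.5%, and the median log2 fold change of all genes tested was 0.049, 0.209 with library size alone, 0.126 with no filter and −0.183 with DESeq2. The smallest library sets the depth limit, since 3 reads in WT replicate 1 equal 17.3 CPM.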
